A study of Mus musculus with 15 samples.

Results

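The genes described here are 10 named genes of the oxidant and metal response: Nfe2l2, Hmox1, Srxn1, Txnrd1, Gclm, Gclc, Nqo1, Cat, Mt1 and Mt2. They were taken by gene symbol from a bulk RNA-seq count table of mouse muscle stem cells. Of the 10, 9 are among the 8059 genes of the table, and Nqo1 is not analysed here. The cells, also called satellite cells, are the resident stem cells of skeletal muscle. The table holds 22 libraries in 6 groups: 4 of T0, which is intact tissue, 4 of T15, 3 of T30, 4 of T60, 3 of T90 and 4 of T120, which are dissociated tissue. The numbers in the group names are taken as minutes of dissociation, since the labels give no unit. All 6 groups are labelled as fixed, which the protocols describe as PFA, and dissociation used collagenase and dispase, enzymes that digest the matrix between cells. The labels give no genotype, age or sex for these libraries and do not say that they came from separate animals, so p-values measure the spread between these libraries, which may be technical.

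NRF2, the protein of Nfe2l2, is a transcription factor held at low levels in resting cells by KEAP1, an adaptor that marks it for degradation. Oxidants and electrophiles modify KEAP1, NRF2 then builds up, and with a small MAF partner it binds antioxidant response elements near genes for glutathione synthesis, thioredoxin recycling and heme breakdown. BACH1 is a repressor that occupies the same elements and is released by heme. Metallothioneins are small cysteine-rich proteins that bind zinc and copper. Their genes are switched on by the zinc sensor MTF1 through metal response elements, and also by glucocorticoids and oxidants.

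The promoters of Mt1, Mt2 and Srxn1 are shown because these genes stood among those with steep rises and because their windows hold repeated matches to a motif searched. The sequences come from RefSeq on GRCm38.p6 (mm10), plus strand, from 250 bases before the annotated start to 30 after it, at chr8:94178839-94179118 for Mt1, chr8:94172368-94172647 for Mt2 and chr2:152105274-152105553 for Srxn1. Capitals mark TGCGCNC or TGCACNC, the core of the metal response element, in Mt1 and Mt2, and TGAGTCA, an AP-1 site, in Srxn1, on either strand.
Mt1: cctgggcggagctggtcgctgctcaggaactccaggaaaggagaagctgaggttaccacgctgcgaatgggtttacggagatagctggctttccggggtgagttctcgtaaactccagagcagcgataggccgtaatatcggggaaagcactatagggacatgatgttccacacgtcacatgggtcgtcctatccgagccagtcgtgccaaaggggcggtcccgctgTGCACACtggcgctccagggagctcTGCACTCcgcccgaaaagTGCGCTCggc
Mt2: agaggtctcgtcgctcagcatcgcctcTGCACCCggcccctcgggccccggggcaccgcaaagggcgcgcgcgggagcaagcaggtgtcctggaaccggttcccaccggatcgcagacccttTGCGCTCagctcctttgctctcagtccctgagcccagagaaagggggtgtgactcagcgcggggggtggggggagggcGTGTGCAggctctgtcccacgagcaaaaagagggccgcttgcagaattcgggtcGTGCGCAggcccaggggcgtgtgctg
Srxn1: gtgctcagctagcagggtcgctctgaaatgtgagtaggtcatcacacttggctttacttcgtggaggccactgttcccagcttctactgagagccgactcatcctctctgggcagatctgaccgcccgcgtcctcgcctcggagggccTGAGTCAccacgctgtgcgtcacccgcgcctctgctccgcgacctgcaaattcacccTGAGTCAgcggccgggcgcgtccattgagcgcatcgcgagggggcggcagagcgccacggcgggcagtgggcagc

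Motifs were searched on both strands in windows of 250 bases before to 50 after the start, and positions count from 1 at the start. Starts here are those of RefSeq, while the gene coordinates given below are those of GENCODE vM21. For Mt2 the GENCODE start, 94172664, lies past the end of the sequence shown, 94172647. Windows were found for 8 of the 10 genes, so Hmox1 and Gclc were not searched. Mt2 held 4 matches to the metal response core and Mt1 held 3. Of the 32851 windows in the RefSeq table, 25.7% hold at least 1 such match and 1.97% hold 3 or more. Gclm also held 3. The antioxidant response core TGACNNNGC was found once each in Nfe2l2, Srxn1, Gclm, Mt2 and 1 of the 3 Txnrd1 windows, against 12.4% of all windows. In Mt2 the match TGACTCAGC at positions -79 to -71 contains an AP-1 site, so the 2 motifs overlap there. Srxn1 held 2 AP-1 sites, at positions -102 and -45, while 5.2% of all windows hold any. None of the 3 motifs was found in the windows of Cat and Nqo1. A match describes letters only, and enhancers outside these windows were not searched.

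Levels are in CPM, a count scaled to each library's total over listed genes with TMM factors. That total was 2974294 to 10482407 in the 11 libraries up to T30 and 8647622 to 27826437 in the 11 later ones. Changes are log2 fold changes ± standard error (SE) from edgeR's quasi-likelihood test, and a change was called at a Benjamini-Hochberg adjusted p under 0.05 over all listed genes. All adjusted p-values come from edgeR unless another tool is named. All 10 satellite cell markers looked for are in the table, Pax7 among them, with summed levels of 4506 to 7056 CPM. Of 15 immune markers only Cd68 is in the table, and of 6 erythroid markers none is. At T120, 4 of the 10 had risen (Sdc4, Cxcr4, Itga7 and Chrdl2, by 0.52 to 2.59 on the log2 scale) and 4 had fallen (Pax7, Cdh15, Fgfr4 and Calcr), beside 37.3% and 39.5% of listed genes, and the sum went from 4506 to 5313 CPM at T0 to 5508 to 6503 CPM. Pax7 itself stood at 1344 ± 203 CPM at T0 (SD, n = 4) and at 378 ± 80.8 CPM at T120 (SD, n = 4). In bulk samples, fewer cells of a type and less RNA per cell cannot be told apart.

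A low density of reads over genes of other tissues was also measured, because it bears on the weakly expressed genes. Over 7 long genes known mainly from other tissues, among them Muc16 and Dnah8, the median density was 1.14 to 3.85 CPM per kb of exon at T0, 0.379 to 4.26 at T15 and 1.20 to 6.92 at T30. At T60 it was 0.0414 to 0.134 and at T120 0.0517 to 0.994. This density times exon length is called the background below, and its source was not tested. At T0 it amounted to 54.0% to 91.2% of the Hmox1 count, 52.3% to 120% of the Gclm count and 28.4% to 57.7% of the Srxn1 count. It was 19.5% to 50.2% for Gclc and 15.1% to 34.7% for Txnrd1, and at most 17.9% for Nfe2l2, Cat, Mt1 and Mt2. The T60 and T120 changes of Hmox1, Gclm and Srxn1 against T0 are therefore given both as counted and with the background taken off. A count smaller than its background was then left with no reads, as for Gclm in T0 library C. The table lists genes with a mean normalized count of at least 98.4 over all libraries. The mean normalized count of Hmox1 was below that in 4 of the 6 groups, 31.2 to 55.3 from T0 to T60, so Hmox1 is listed only through its T90 and T120 libraries and had to differ. It is therefore left out of the counts and medians below, and its values are a description. The T0 means of the other 8 genes lay above that limit.

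**Figure D1:**
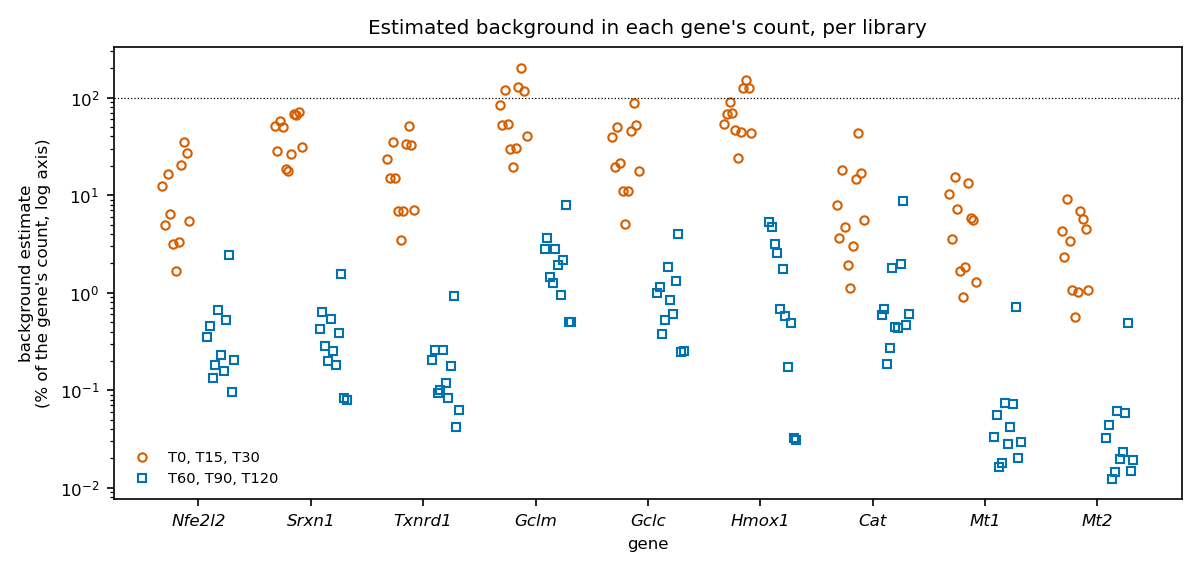
The background estimate as a percentage of each gene's count (log axis), 1 point per library, for the 11 libraries of T0 to T30 (circles) and the 11 of T60 to T120 (squares), with a dotted line at 100%. Points of Hmox1 and Gclm reach or pass the line in the early libraries, up to 152% and 203%, while the late libraries of all 9 genes stay at or under 8.77%.

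At T15 none of the 9 genes, Hmox1 included, was called, where 0.67% of all listed genes were called in either direction. Without adjustment, Mt1 and Mt2 had an edgeR p under 0.05, but the share of all listed genes under that cut-off was not counted. DESeq2 and limma-voom also called none of the 9. At T30 Mt1, Mt2 and Txnrd1 had risen, which is 3 of the 8 genes without Hmox1 where 3.66% of listed genes rose. None fell, where 1.34% of listed genes fell. At T60 the genes that had risen numbered 7 of 8, all but Cat, beside 27.9% of listed genes, and none had fallen, beside 28.3%. At T90 and at T120, 7 of 8 had risen and Cat had fallen. The shares of listed genes that rose were 33.8% at T90 and 37.3% at T120, and the shares that fell were 35.0% and 39.5%. The median log2 change of the 8 genes was 1.84 at T60 and 2.74 at T120, while that of all listed genes was -0.03 and -0.08. A joint test called all 8 genes at some time, as it did 85.7% of listed genes. The comparisons with T0 share the same 4 T0 libraries.

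**Figure D2:**
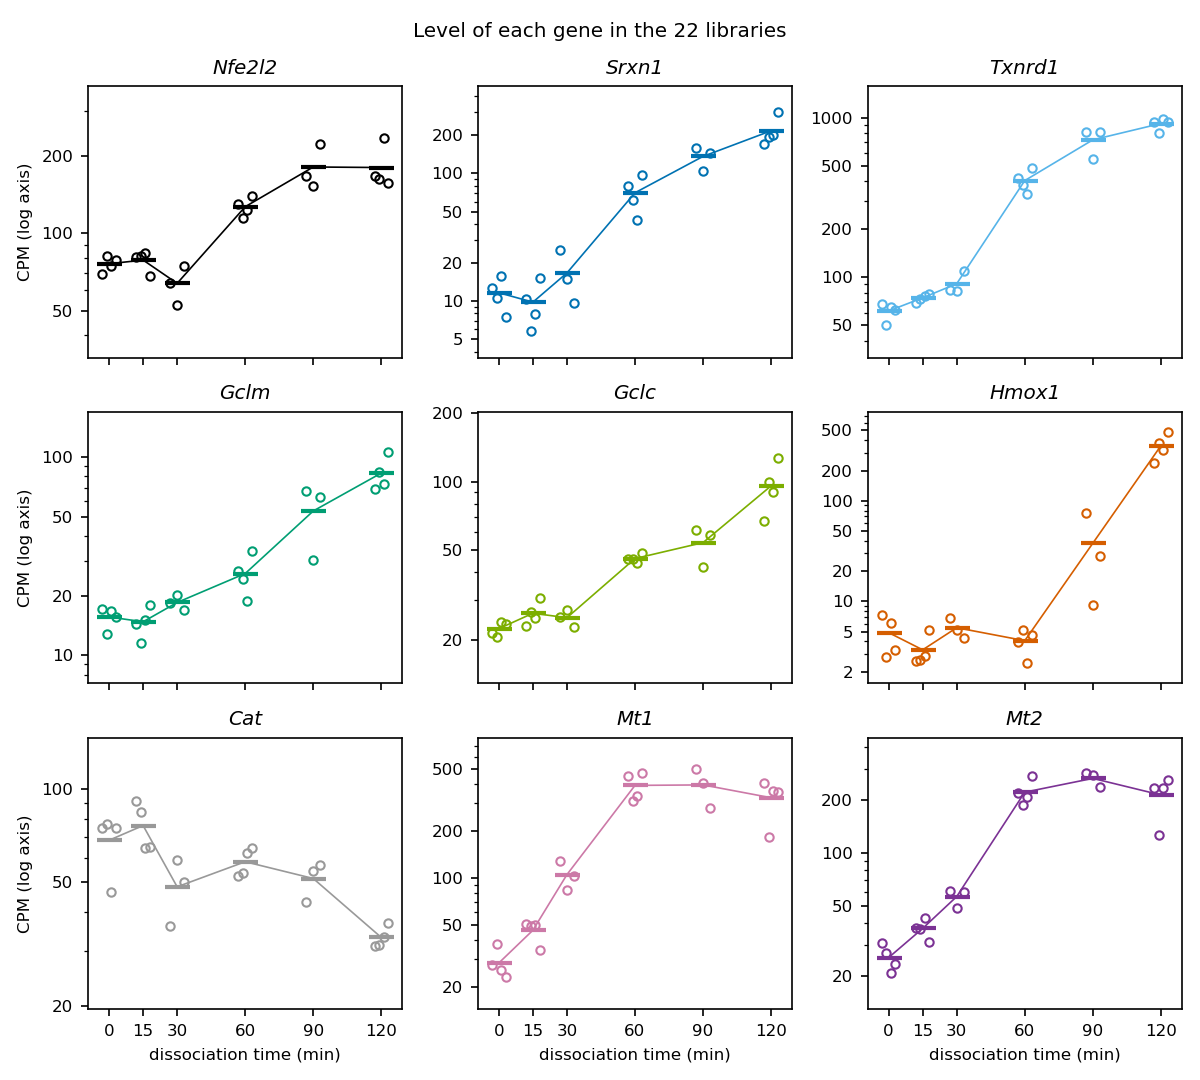
Level of each of the 9 genes in CPM (log axis, scaled per panel) against dissociation time in minutes, with 1 circle per library and a dash at the mean of 3 or 4 libraries. Mt1 and Mt2 have the largest changes at T30 and no called change after T60, Hmox1 stays between 2.46 and 7.34 CPM to T60 and then climbs to 237 to 479 CPM, and Cat declines.

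Mt1 and Mt2, the metallothionein genes, had the largest changes of the group at T30, when Txnrd1 was called as well. They are neighbours on chromosome 8, Mt2 at chr8:94172664-94173568 and Mt1 at chr8:94179082-94180327, both on the plus strand. Mt1 stood at 27.7, 37.4, 25.7 and 23.0 CPM in the T0 libraries and at 50.6, 49.3, 49.9 and 34.6 CPM at T15, a log2 change of 0.70 ± 0.24 that was not called (adjusted p = 0.571). The T15 library at 34.6 CPM lay within the T0 range and the others lay above it. At T30 Mt1 reached 127, 83.6 and 103 CPM, above every T0 and T15 library, with a log2 change against T0 of 1.88 ± 0.25 (adjusted p = 3.56e-05). Mt2 was at 30.7, 26.9, 20.7 and 23.2 CPM at T0 and at 60.7, 48.6 and 60 CPM at T30, again with no overlap, and rose by 1.15 ± 0.20 (adjusted p = 0.000684). The level of Mt1 at T60 was 447, 311, 337 and 473 CPM and that of Mt2 was 219, 186, 207 and 273 CPM. These are 13.8-fold and 8.71-fold above T0, at log2 changes of 3.79 ± 0.26 and 3.12 ± 0.19 (adjusted p = 1.27e-10 and 3.13e-11).

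From T60 on, no further change of either metallothionein was called. Mt1 was at 496, 409 and 279 CPM at T90 and at 407, 183, 362 and 355 CPM at T120. Mt2 was at 283, 276 and 237 CPM at T90 and at 234, 127, 234 and 260 CPM at T120. The T120 library B was the lowest of its group for both genes and had the highest background density of that group, 0.994 CPM per kb, whose part in this was not tested. The log2 change from T60 to T120 was -0.26 ± 0.22 for Mt1 (adjusted p = 0.321) and -0.05 ± 0.17 for Mt2 (adjusted p = 0.804), which does not show that they stayed level. Against T0, the T120 change was 3.52 ± 0.25 for Mt1 and 3.07 ± 0.19 for Mt2 (adjusted p = 1.09e-10 and 1.42e-11).

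The 2 genes did not keep a fixed ratio. Counts of Mt1 over Mt2 ran from 0.902 to 1.39 in the T0 libraries, from 1.11 to 1.35 at T15 and from 1.72 to 2.10 at T30. They were 1.63 to 2.04 at T60, 1.18 to 1.75 at T90 and 1.37 to 1.74 at T120. The T30 and T60 ratios lay above all T0 and T15 ratios, which is a description with no test. The longest stretch shared by any Mt1 and Mt2 transcript of GENCODE vM21 is 20 bases, shorter than the 65-base reads given in the labels. A total of 432 of the 588 exon bases of Mt2 also lie under Gm45774, an antisense gene. The strand setting of the counting is not stated in the sources, so Mt2 counts may include antisense reads or lack shared ones.

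Nfe2l2 (chr2:75675513-75704641, minus strand) encodes NRF2 itself and had the smallest T120 change of the 8 genes that rose. It stood at 69.4, 81.7, 74.3 and 78.9 CPM at T0, at 81.1, 81.3, 84.1 and 68.3 CPM at T15 and at 64.2, 52.4 and 74.8 CPM at T30. These groups overlapped and no change among them was called. At T60 it was at 130, 115, 123 and 141 CPM, above all earlier libraries, a log2 change of 0.74 ± 0.14 against T0 (adjusted p = 0.000142). It reached 167, 153 and 224 CPM at T90 and 168, 163, 235 and 157 CPM at T120, with log2 changes of 1.25 ± 0.15 and 1.25 ± 0.14 (adjusted p = 2.51e-07 and 7.49e-08). The step from T60 to T90 was called at 0.52 ± 0.15 (adjusted p = 0.0118), but not without T90 library C, where it was 0.32 (adjusted p = 0.121).

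Srxn1 and Txnrd1 serve the recycling of oxidised protein thiols. Srxn1 (chr2:152105516-152111376, plus strand) encodes sulfiredoxin, which restores over-oxidised peroxiredoxins. It was at 12.6, 10.6, 15.6 and 7.55 CPM at T0 and at 25.2, 14.8 and 9.66 CPM at T30, where the groups overlapped. At T60 it was at 79.6, 62.0, 43.4 and 96.2 CPM, all above the earlier libraries, a log2 change of 2.65 ± 0.33 against T0 (adjusted p = 8.54e-07), or 3.22 with the background taken off. It went on to 157, 105 and 145 CPM at T90 and to 170, 191, 198 and 301 CPM at T120, 19.2-fold above T0 at a log2 change of 4.26 ± 0.34 (adjusted p = 4.51e-10). With the background taken off, the T120 change was 4.89. The T60 to T90 step of Srxn1, 0.95 ± 0.30 (adjusted p = 0.0217), was lost without T60 library B or C or T90 library A or C (adjusted p = 0.0542, 0.0777, 0.0858 and 0.0707).

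Txnrd1 (chr10:82833951-82897712, plus strand) encodes cytosolic thioredoxin reductase, the enzyme that reduces thioredoxin with NADPH. It was at 67.5, 50.2, 65.4 and 62.7 CPM at T0, at 69.4, 72.8, 76.5 and 78.5 CPM at T15 and at 82.6, 81.4 and 109 CPM at T30. These 3 groups did not overlap. The T30 change of 0.57 ± 0.15 was called (adjusted p = 0.0323), but it was lost without T0 library B (adjusted p = 0.113), T0 library D (0.0604) or T30 library C (0.114), and when only T0 and T30 were fitted (0.0661). At T60 Txnrd1 was at 418, 378, 333 and 482 CPM and at T120 at 940, 800, 985 and 943 CPM. The log2 changes were 2.71 ± 0.15 and 3.90 ± 0.16 (adjusted p = 8.55e-12 and 9.86e-14), the latter 14.9-fold. Counts of Srxn1 per count of Txnrd1 were 0.121 to 0.239 at T0, 0.130 to 0.199 at T60 and 0.181 to 0.319 at T120, ranges that overlap. These ratios include the background. With it taken off, the T60 and T120 changes were 2.72 and 3.97 for Txnrd1, beside 3.22 and 4.89 for Srxn1.

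**Figure D3:**
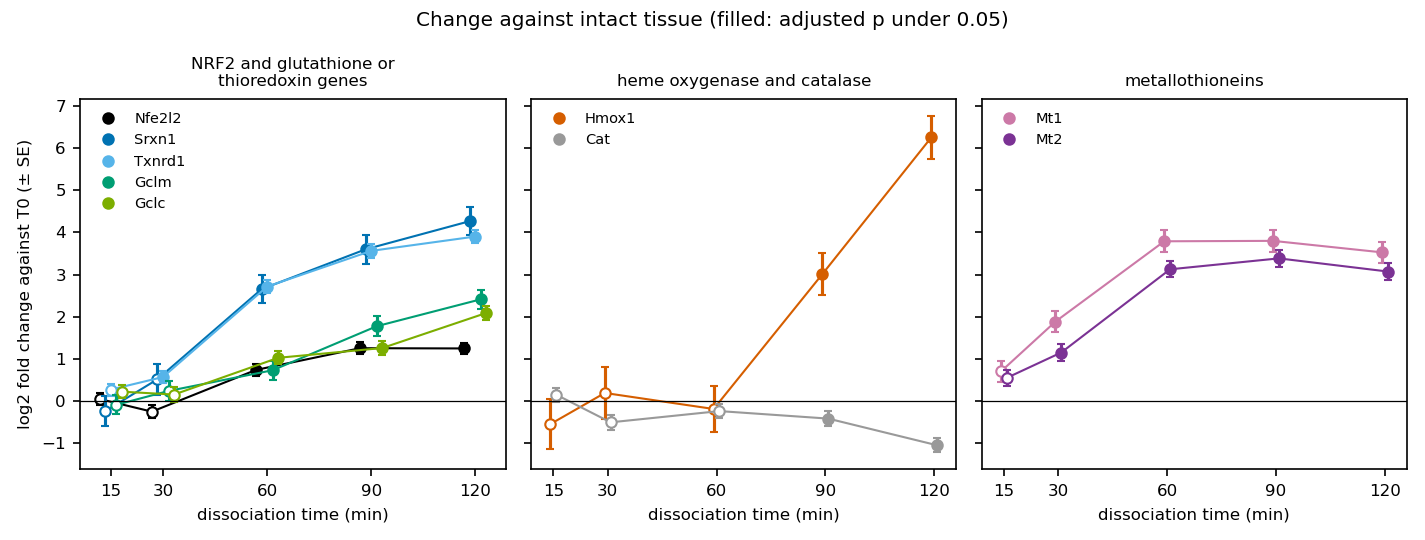
Log2 fold change against T0 at each later time (minutes), ± SE from edgeR, with filled points for an adjusted p under 0.05 and open points otherwise, points shifted sideways for legibility. As counted, Srxn1 and Txnrd1 run together from T60, Hmox1 is near 0 to T60 and at 6.25 at T120, and the metallothioneins are called from T30.

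Gclc and Gclm encode the catalytic and the modifier subunit of glutamate-cysteine ligase, which makes the first bond of glutathione. Gclc (chr9:77754535-77794485, plus strand) was at 21.6, 20.7, 24.0 and 23.6 CPM at T0 and at 45.6, 45.5, 43.7 and 48.5 CPM at T60, with no overlap, a log2 change of 1.03 ± 0.16 (adjusted p = 1.5e-05). At T90 it was at 61.3, 42.1 and 58.2 CPM, which overlaps T60. At T120 it was at 66.7, 99.3, 90.1 and 127 CPM, above all earlier libraries, with a log2 change against T0 of 2.09 ± 0.16 (adjusted p = 2.92e-10).

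Gclm (chr3:122245557-122270732, plus strand) was at 17.1, 12.9, 16.8 and 15.6 CPM at T0, within or near the background. It was at 26.6, 24.1, 18.9 and 33.7 CPM at T60, all above T0, a log2 change of 0.73 ± 0.22 (adjusted p = 0.00833) that limma-voom did not call (adjusted p = 0.0659). With the background taken off, the T60 change was 2.28. At T90 it was at 67.1, 30.3 and 62.6 CPM, library B lying within the T60 range. At T120 it was at 69.0, 83.8, 73.2 and 105 CPM, a log2 change against T0 of 2.41 ± 0.23 (adjusted p = 5.66e-09), or 4.03 with the background taken off. The T0 mean of Gclm with the background taken off was 4.4 ± 3.4 CPM (SD, n = 4), so the sizes of 2.28 and 4.03 are uncertain. Taking the background off raised the spread of all genes, to a common biological coefficient of variation of 0.302 from 0.192, and ended 3 calls of Gclm whose sizes stayed about as large. The change from T60 to T90 was 1.07 (adjusted p = 0.459) beside 1.04 as counted, from T90 to T120 it was 0.68 (adjusted p = 0.731) beside 0.64, and from T60 to T120 it was 1.74 (adjusted p = 0.0779) beside 1.68. Exons of Gclm overlap an antisense gene by 296 bases and a pseudogene on its own strand by 244. Counts of Gclc per count of Gclm were 1.26 to 1.61 at T0, 0.914 to 1.39 at T90 and 0.968 to 1.23 at T120, so the T120 ratios lay below all T0 ratios, again without a test.

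Hmox1 (chr8:75093621-75100589, plus strand) encodes heme oxygenase 1, which splits heme into iron, biliverdin and carbon monoxide. It was first called at T90 and had the largest T120 change of the 9 genes, in a table that lists it only through those late libraries. It was at 7.34, 2.78, 6.14 and 3.33 CPM at T0, from 16 to 39 reads per library, and at 3.96, 5.21, 2.46 and 4.66 CPM at T60. These levels overlapped, the log2 change at T60 was -0.19 ± 0.54 (adjusted p = 0.789), and it was 1.12 with the background taken off and 0.40 without the 5 libraries of highest background. At T90 the 3 libraries were far apart, at 76.3, 9.25 and 28.2 CPM, all above every earlier library. The log2 change against T60 was 3.20 ± 0.47. At T120 Hmox1 was at 237, 376, 318 and 479 CPM, again above all earlier libraries, and the further step was 3.23 ± 0.46. The T120 change was 6.25 ± 0.52 against T0 and 6.43 ± 0.50 against T60. No adjusted p is given for these late changes, since the listing of Hmox1 required high late counts. With the background taken off, the change against T0 was 7.67. The T60 libraries hold little background, 2.54% to 5.29% of the Hmox1 count, and the change from T60 to T120 was 6.56 with it taken off.

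Cat (chr2:103453849-103485160, minus strand) encodes catalase, which breaks down hydrogen peroxide in peroxisomes, and was the gene of the 9 that fell. It was at 75.1, 77.0, 46.6 and 74.6 CPM at T0, at 91.6, 84.1, 64.5 and 64.8 CPM at T15 and at 36.1, 58.8 and 50.1 CPM at T30. The T0 and T30 groups overlapped through T0 library C, and the T30 change against T0 of -0.50 ± 0.18 was not called (adjusted p = 0.121). Without that library it was -0.63 and called (adjusted p = 0.0281). Cat was at 52.4, 53.7, 62.3 and 64.6 CPM at T60 and at 43.3, 54.3 and 56.7 CPM at T90. The T60 change against T0 of -0.24 ± 0.16 was not called (adjusted p = 0.226). It was called without T0 library C, at -0.38 (adjusted p = 0.0407), and with the background taken off, at -0.46 (adjusted p = 0.037). The T90 change of -0.41 ± 0.18 was called at an adjusted p of 0.0427 but was lost in 8 alternatives, including each fit that left out T0 library A, B or D or T90 library A or B (adjusted p from 0.0516 to 0.185). At T120 it was at 31.2, 31.4, 33.3 and 36.8 CPM, below all T0 libraries, and fell by 1.05 ± 0.17 on the log2 scale (adjusted p = 7.92e-06).

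The steps between neighbouring times from T15 on do not use the T0 libraries, but each shares a group with the next. From T15 to T30, Mt1 rose by 1.18 ± 0.25 (adjusted p = 0.00766), 1 of 8 where 3.16% of listed genes rose, and Cat fell by 0.66 ± 0.18 (adjusted p = 0.0391), where 1.72% fell. Neither call held without T30 library A, where the adjusted p was 0.0563 for Mt1 and 0.285 for Cat, or without the 5 libraries of highest background (0.287 and 0.261). The Cat call was also lost without T15 library A or B (adjusted p = 0.147 and 0.125). From T30 to T60, 6 of 8 rose where 26.5% of listed genes rose, and none fell where 24.5% fell. Those 6 were Nfe2l2, Srxn1, Txnrd1, Gclc, Mt1 and Mt2. The changes of Srxn1, Txnrd1, Mt1 and Mt2 in that step lay between 1.90 and 2.14 as counted. With the background taken off they were 2.73 for Srxn1, 1.99 for Txnrd1, 1.16 for Mt1 and 1.27 for Mt2. On that scale the T15 to T30 change of Mt1 was 1.78. From T60 to T90, 4 of 8 rose, Nfe2l2, Srxn1, Txnrd1 and Gclm, where 16.7% of listed genes rose, and none fell where 13.6% fell. Without T90 library C, 2 of these were called, Txnrd1 and Gclm.

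From T90 to T120, 2 of 8 rose, Gclm and Gclc, where 9.11% of listed genes rose. Cat fell, 1 of 8, where 13.9% of listed genes fell. Gclc rose by 0.83 ± 0.16 (adjusted p = 0.00183). Gclm rose by 0.64 ± 0.23 (adjusted p = 0.0468), a call lost in 9 alternatives, among them without T90 library B or C or T120 library B or D (adjusted p from 0.0512 to 0.256), and without T90 library B the change was 0.36. The fall of Cat, by 0.63 ± 0.17 (adjusted p = 0.0139), was lost without T90 library B (adjusted p = 0.06) or C (0.0695). Over the second hour as a whole, from T60 to T120, 5 of 8 rose, all but the metallothioneins and Cat, where 28.4% of listed genes rose. Cat fell by 0.81 ± 0.16 (adjusted p = 0.000256), where 32.0% fell.

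**Figure D4:**
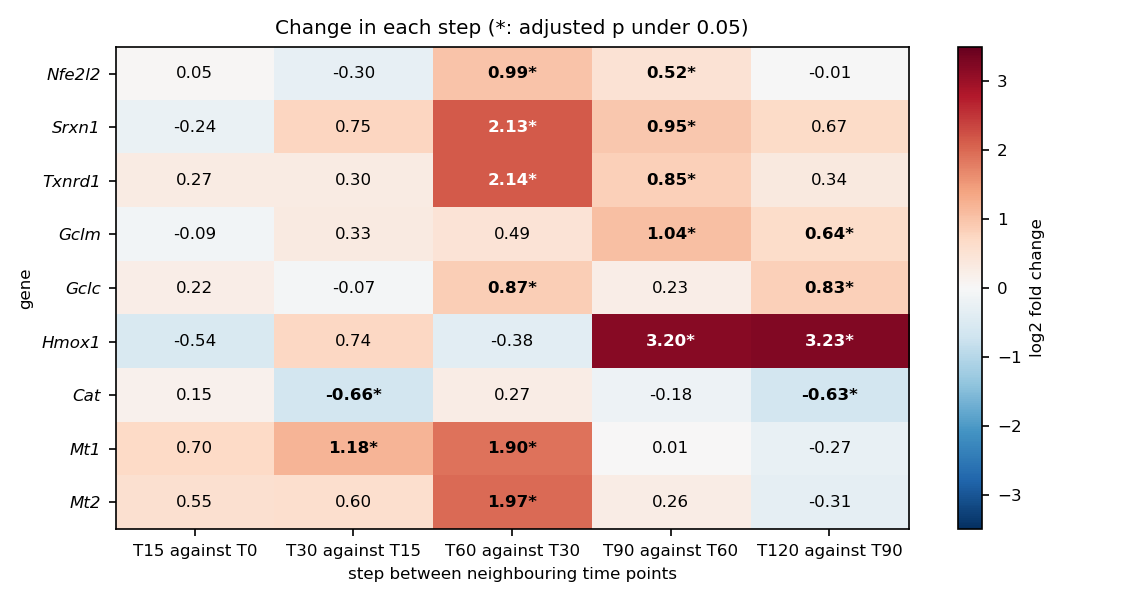
Log2 fold change of the 9 genes (rows) in each step between neighbouring time points (columns), with an asterisk and bold type at an adjusted p under 0.05. As counted, the metallothioneins, Srxn1 and Txnrd1 change most from T30 to T60, and Hmox1 changes by 3.20 and 3.23 in the last 2 steps.

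The timing can also be read as the share of the T120 log2 change that was already present earlier. At T60 that share was 107% for Mt1 and 102% for Mt2, 69.6% for Txnrd1, 62.2% for Srxn1 and 59.2% for Nfe2l2. It was 49.1% for Gclc, 30.3% for Gclm and -2.99% for Hmox1. At T30 the metallothioneins stood at 53.5% and 37.5% and Txnrd1 at 14.6%. The T30 changes of Mt1 and Mt2 were 2.42 and 1.58 with the background taken off, beside 1.88 and 1.15 as counted, so these T30 shares depend on it. With the background taken off, the T60 share was 106% for Mt1, 100.1% for Mt2, 68.5% for Txnrd1, 65.8% for Srxn1, 56.7% for Gclm, 52.5% for Gclc, 48.7% for Nfe2l2 and 14.5% for Hmox1. On both scales the metallothioneins came first and Hmox1 last, though the listing of Hmox1 required high late counts. The Gclm share with the background taken off rests on an uncertain T0 level. The order of Gclm, Gclc and Nfe2l2 differed between the scales, and no order was tested.

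Levels between genes were compared per kb of exon. At T0 Mt2 was highest at 43.1 ± 7.44 CPM per kb (SD, n = 4), followed by Cat at 26.2 ± 5.55, Mt1 at 22.8 ± 5.02 and Nfe2l2 at 20.1 ± 1.42, of which the last 3 did not differ beyond their spread. Txnrd1 followed at 8.67 ± 1.09 and Gclc at 5.97 ± 0.424. Srxn1 at 4.11 ± 1.21, Hmox1 at 2.80 ± 1.25 and Gclm at 2.48 ± 0.306 could not be ranked. The median listed gene was at 9.36, and Gclm, Hmox1 and Srxn1 lay at or below the 12.9th percentile. At T120 the highest were Mt2 at 363 ± 100 CPM per kb, Mt1 at 262 ± 79.2 and Hmox1 at 201.5 ± 58.2, neighbours that did not differ beyond their spread. Txnrd1 was at 129 ± 11.4, Srxn1 at 76.2 ± 20.8 and Nfe2l2 at 47.6 ± 9.64. Gclc was at 25.4 ± 6.59 CPM per kb, and Gclm at 13.2 ± 2.59 and Cat at 12.7 ± 1.00 lay within each other's spread. Catalase went from among the highest of the 9 to among the lowest. The exon length used for Mt1, 1246 bases over all its transcripts, exceeds the 549 bases of its transcript Mt1-201, so its level per kb is a low estimate. For Mt2 the length used, 588 bases, is close to the 511 bases of Mt2-201. The rank of Mt1 beside Mt2, Cat, Nfe2l2 and Hmox1, and its overlap with them, therefore depend on the length used and are not settled.

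Among 12 listed regulators and partners of NRF2, 7 rose and 3 fell at T120, beside 37.3% and 39.5% of all listed genes, and 7 rose and 3 fell at T60, beside 27.9% and 28.3%. Their median log2 change at T120 was 1.27, beside -0.08 for all listed genes. Keap1, the NRF2 inhibitor, went from 32.0 ± 3.01 CPM at T0 to 11.0 ± 1.13 CPM at T120 (SD, n = 4 each) and fell by 1.54 ± 0.17 on the log2 scale (adjusted p = 7.66e-08). Bach1, the repressor of the same elements, rose by 1.97 ± 0.11 (adjusted p = 5.85e-12). The small MAF genes Maff and Mafk, partners of both NRF2 and BACH1, rose early: Maff by 2.21 ± 0.29 at T30 and by 4.16 ± 0.29 at T60, and Mafk by 1.49 ± 0.18 and 3.32 ± 0.18 (adjusted p = 2.19e-05, 1.69e-10, 9.01e-06 and 8.55e-12). Sqstm1, the autophagy receptor p62 that binds KEAP1, rose by 1.80 ± 0.19 at T60 and 2.89 ± 0.20 at T120 (adjusted p = 1.17e-07 and 5.54e-11).

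Of 20 other listed genes known as NRF2 targets, 6 rose and 6 fell at T120, beside 37.3% and 39.5% of all listed genes, and 5 rose and 4 fell at T60, beside 27.9% and 28.3%. Both shares at T120 are below those of all listed genes, and the counts are no result about the list. The median log2 change was 0.26 at T120. Txn1, thioredoxin itself, rose by 2.18 ± 0.17 (adjusted p = 3.16e-10), and Ugdh, which makes UDP-glucuronate, by 2.07 ± 0.18 (adjusted p = 1.65e-09). Prdx1, a peroxiredoxin, rose by 1.14 ± 0.12 (adjusted p = 4.79e-08). Osgin1 rose by 3.20 ± 0.25 at T60 (adjusted p = 1.04e-09) and stood at 2.03 ± 0.24 at T120. Aox1, an aldehyde oxidase, fell by 2.42 ± 0.22 (adjusted p = 3.77e-09). G6pdx, Pgd and Tkt had log2 changes between 0.32 and 0.35 at T120 that were not called. Taldo1 and Idh1 fell, with log2 changes of -0.38 and -0.56 that were called. Slc7a11, the cystine transporter, is not analysed here.

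Of 20 other genes against peroxide and superoxide, 7 rose and 7 fell at T120, near the 37.3% and 39.5% of all listed genes. Txnip, the inhibitor of thioredoxin, fell by 2.67 ± 0.35 (adjusted p = 5.64e-07). Of the sestrins, Sesn2 rose by 1.88 ± 0.35 (adjusted p = 6.25e-05), while Sesn1 fell by 2.59 ± 0.19 and Sesn3 by 1.44 ± 0.26 (adjusted p = 1.04e-10 and 4.15e-05). Sod2, the mitochondrial superoxide dismutase, rose with a log2 change of 1.07, and Sod1 had -0.08 and was not called.

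Of 14 genes of zinc and copper handling, 7 rose and 3 fell at T120, beside 37.3% and 39.5% of all listed genes. Mtf1, the zinc sensor, had a log2 change of -0.06 ± 0.18 at T120 (adjusted p = 0.747), and at T60 it fell by 0.43 ± 0.18 (adjusted p = 0.0449). Slc30a1, a zinc exporter and a known MTF1 target, fell by 0.55 ± 0.14 at T60 and by 0.35 ± 0.14 at T120 (adjusted p = 0.00193 and 0.0258). MTF1 activity was not measured, and its part in the metallothionein rise was not tested. The importers Slc39a14 and Slc39a6 rose by 2.20 ± 0.23 and 1.69 ± 0.12 at T120, and the copper importer Slc31a1 by 1.90 ± 0.17 (adjusted p = 2.22e-08, 8.77e-11 and 2.67e-09). Slc39a13 fell by 1.88 ± 0.18 (adjusted p = 5.56e-09).

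Of 14 genes of heme and iron handling, 7 rose and 4 fell at T120, beside the same 37.3% and 39.5%. The ferritin genes, which store iron, differed in size: Ftl1 rose by 2.42 ± 0.22 and Fth1 by 0.53 ± 0.14 (adjusted p = 3.5e-09 and 0.00148). Tfrc, the transferrin receptor, rose by 2.10 ± 0.17, and Slc11a2, an iron importer, by 1.90 ± 0.21 (adjusted p = 8.14e-10 and 5.39e-08). Fech, the last enzyme of heme synthesis, fell by 1.55 ± 0.22 (adjusted p = 1.52e-06). Ftl1 belongs to a family with near-identical pseudogenes, so its counts are uncertain.

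**Figure D5:**
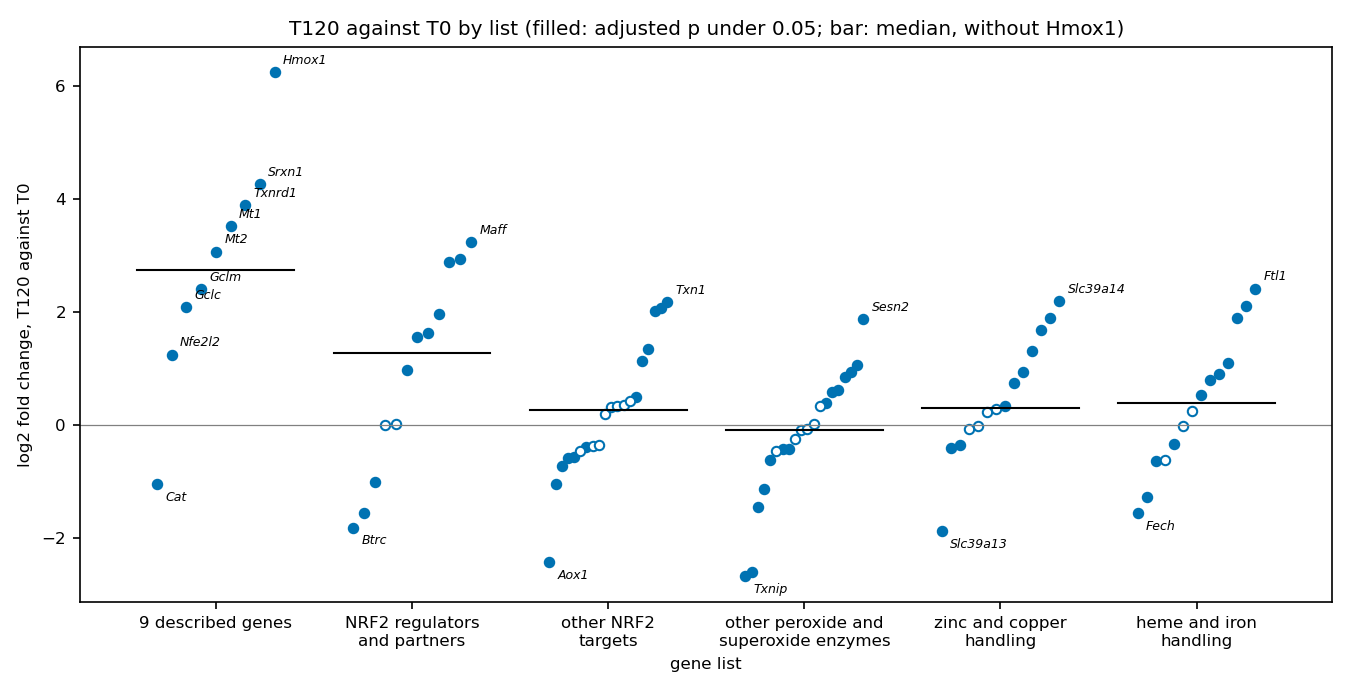
Log2 fold change at T120 against T0 for the 9 genes and for the listed genes of 5 related lists, 1 point per gene, filled at an adjusted p under 0.05, with a bar at each list's median and names at the extremes. The bar of the described genes, 2.74, leaves out Hmox1, and the related lists have medians between -0.07 and 1.27 with genes on both sides of 0.

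Markers of other cells moved with time as well. Endothelial markers (6 of 11 listed) summed to 170.5 to 284 CPM at T0, 131 to 191 CPM at T60 and 329 to 621 CPM at T120, where 5 of 6 had risen, Pecam1 and Cdh5 among them, beside 37.3% of listed genes. Myofibre markers (8 of 11 listed) summed to 587 to 796 CPM at T0 and 248 to 530 CPM at T120, with 2 up and 5 down, beside 37.3% and 39.5%. Fibro-adipogenic markers (7 of 11) summed to 1913 to 3136 CPM at T0 and 1980 to 2368 at T120, with 2 up and 1 down. Smooth muscle and pericyte markers (7 of 9) summed to 960.5 to 1137 CPM and to 987 to 1285 CPM at the same times. Of these, 2 were up and 1 was down at T120, again beside 37.3% and 39.5%. The immune marker Cd68 was at 10.2 ± 1.12 CPM at T0 and at 34.0 ± 15.1 CPM at T30 (SD, n = 4 and 3). The part of these markers in the results was not tested.

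Over the 22 libraries, the patterns most like each gene were found by Pearson correlation of log2 CPM. These libraries share depth differences and the broad change between T30 and T60, so high values are common and are given as a description. Mt1 and Mt2 had r = 0.986 with each other. Nearest among other genes were Mafk, Tra2b and Fosl2 to Mt1 (r = 0.988, 0.984 and 0.981) and Slc38a2, Tra2b and Lmna to Mt2 (r = 0.990, 0.989 and 0.984). Srxn1 was nearest to Gm14636, Fgl2 and Fosl1 (r = 0.989, 0.988 and 0.986) and Txnrd1 to Mlxip, Etf1 and Mex3c (r = 0.994, 0.993 and 0.993). Hmox1, with its late rise, was nearest to Eif1ad, Umps and Lsg1 (r = 0.975, 0.970 and 0.967). Gclm was nearest to Mob1b, Nmd3 and Pdlim5 (r = 0.978, 0.974 and 0.973), and Gclc to Lrrc59, Txn1 and Psmd11 (r = 0.962, 0.961 and 0.957). Nfe2l2 was nearest to Cand1, Setd2 and Plekha3 (r = 0.973, 0.973 and 0.971). Cat was nearest to Galnt16, Nfib and Foxo3 (r = 0.936, 0.923 and 0.922). Among the described genes, Hmox1 had r = 0.931 with Gclm but 0.506 with Mt1, and Srxn1 had 0.968 with Txnrd1. Hmox1 and Gclm also had the largest background shares in the early libraries, up to 152% and 203%, whose part in their r was not tested.

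In the authors' deposited table, 86 of the 90 comparisons of these 9 genes had the same call as here, 2 were called only there and 2 only here, and log2 fold changes differed by at most 0.216. These comparisons include the late rises of Hmox1, which its listing required.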

How the data were processed

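Bulk RNA-seq of mouse muscle stem cells gave 22 libraries. Per the file headers the authors deposited whole-number counts per gene, a second set of counts divided by a size factor (a score, used only as an alternative scaling), and their own log2 fold changes and adjusted p-values from their comparisons. The submitters' processing notes name cutadapt 1.11, featureCounts 1.4.5-p3, DESeq2 1.18.1 and mm10. The aligner, annotation release and strand setting of the counting were not given in the sources used here. By its own column of means, the lowest mean normalized count listed is 98.4, so weak genes are absent from the tests. Of the identifiers, 8049 matched GENCODE vM21. The number of per-sample columns that matched no sample was 0. Samples of single nuclei and single cells (9 of 15) were not analysed here.

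Counts were tested with edgeR 4.0.16 (R 4.3.3): TMM factors, quasi-likelihood fit with time point as a factor over all libraries, no covariate, Benjamini-Hochberg adjustment over 8059 genes, with filterByExpr, which kept them all. The SE is the size of the log2 change over the square root of F. On data simulated for T120 against T0 over 8059 genes, the fit was tested for recovery of known changes. Alternatives were DESeq2 1.42.0, the authors' size factors, no filter, limma-voom (limma 3.58.1), fits of 2 time points, a replicate block and leaving out each library. Background subtraction and leaving out the 5 libraries of highest background were added after seeing the data, as was the choice of the 7 long genes. The named genes are the 10 of the group, up to 4 called genes with the largest T120 change per related list, 10 genes named whatever their value, and the 3 most alike in pattern. G6pdx, Pgd, Tkt, Taldo1, Idh1, Sod1, Sod2 and the called satellite cell markers were named after their values were seen. The members and lists were chosen with earlier results of these data known.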

Additional observations from a re-analysis of the deposited data

Results flagged for a closer look

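In 36 groups of 4 libraries (9 genes at 4 time points), 4 values stood far from the other 3 of their group, where chance gives about 1 in 20 groups. Nfe2l2 at T120 was at 235 CPM in library C and at 157 to 168 CPM in the others. Hmox1 at T15 was at 5.15 CPM in library D and at 2.56 to 2.89 CPM in the others. Mt1 at T15 was at 34.6 CPM in the same library D and at 49.3 to 50.6 CPM in the others. Cat at T0 was at 46.6 CPM in library C and at 74.6 to 77.0 CPM in the others. T15 library D and T0 library C are among the 5 libraries of highest background, with densities of 4.26 and 3.85 CPM per kb. The part of the background in these values was not tested.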

How the results depend on the processing

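Of the 90 single-gene comparisons, 52 were called, and these gave 803 values under the alternatives: 761 kept their direction and call, 42 lost the call and 0 reversed. The lost calls fell on 11 comparisons. Of the 38 uncalled comparisons, 5 were called under some alternative. These totals and the counts of called genes here are over all 9, including the late rises of Hmox1 that its listing required. From T15 to T30 the count was 2, and it was 1 with limma-voom, 1 with only those time points, 1 with the replicate block and 0 without the 5 libraries of highest background, and leaving out single libraries gave 0 to 2. Leaving out single libraries gave 3 to 5 from T60 to T90 and 2 to 4 from T90 to T120. The replicate block took letters as pairs, although same-letter deviations correlated above 0.1 in only 26 of 51 pairs (median 0.116). It changed the counts called to 8 at T90, 1 from T15 to T30 and 3 from T90 to T120, and left the other counts as they were. All reversals were of uncalled changes, and the cause was not tested. With background subtraction the T15 change was -0.041 for Nfe2l2 and 0.65 for Gclm, and the T30 change was -0.17 for Hmox1, -0.069 for Gclm and -0.15 for Gclc. It also gave 1.12 for Hmox1 at T60, -0.72 for Gclm from T15 to T30, 1.29 for Hmox1 and -0.090 for Cat from T30 to T60, and 0.043 for Nfe2l2 from T90 to T120. Without the 5 libraries Hmox1 at T60 was 0.40 and Nfe2l2 from T90 to T120 was 0.024. For Nfe2l2 in that step DESeq2 gave 0.017, the fit of those time points 0.023 and the block 0.0090. Gclc from T15 to T30 was 0.012 with the authors' size factors and 0.0058 with the block, and Mt1 from T60 to T90 was -0.0089 with the block. Leaving out single libraries gave ranges of -0.0056 to 0.090 for Nfe2l2 at T15, -0.21 to 0.019 for Gclm at T15, -0.39 to 0.090 for Hmox1 at T60, -0.11 to 0.036 for Gclc from T15 to T30, -0.20 to 0.20 for Mt1 from T60 to T90, -0.16 to 0.19 for Nfe2l2 from T90 to T120 and -0.14 to 0.13 for Mt2 from T60 to T120. With 16 to 39 reads of Hmox1 per T0 library, depth and background limit its starting level. With 56.2% to 76.8% of listed genes called from T60 on, TMM scaling cannot show a shift shared by most genes.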
